A study of Homo sapiens with 4 samples.

Results

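Of 46 genes listed for the heat shock chaperones of the cytosol and the mitochondrion, 41 were measured among the 19751 genes of the array series. The 46 are a list of named genes. They cover the HSP70, HSP110 and HSP90 classes, HSP90 co-chaperones, J-domain proteins, BAG exchange factors, small heat shock proteins, the mitochondrial chaperonin, the TRiC chaperonin and the heat shock factors. The cells were KYSE170, an established line from an oesophageal squamous cell carcinoma, grown in RPMI 1640 medium with serum and antibiotics in all groups. Untreated cultures (2 arrays) were compared with cultures exposed for 12 h to 50 µg/ml of ethyl-3,4-dihydroxybenzoate, here EDHB (2 arrays). The compound inhibits prolyl hydroxylases, the enzymes that mark hypoxia-inducible factors for destruction in the presence of oxygen. The labels name no vehicle for the untreated cultures, and the comparison asks which transcripts differ after the compound. All values come from 1 cell line, 1 dose and 1 time.

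Heat shock chaperones bind unfolded stretches of other proteins and keep them from clumping. HSP70 proteins work in cycles of ATP hydrolysis, in which J-domain proteins deliver the client and start hydrolysis while HSP110 and BAG proteins release the nucleotide. HSP90 finishes the folding of kinases and steroid receptors, small heat shock proteins hold unfolded clients, and the ring-shaped chaperonins enclose them. When unfolded protein accumulates, the transcription factor HSF1 binds heat shock elements, repeats of the unit GAA in alternating direction, in the promoters of many of these genes. In squamous epithelium HSPB1 is an abundant small heat shock protein.

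Promoters of the chaperones are shown first, since they hold the sequence through which the heat shock response acts. RefSeq windows on GRCh38.p14, from 250 bases before to 50 bases after each transcription start, were available for 41 of the 46 genes, with 58 windows in all because some genes have several starts. The element of 3 units, GAANNTTCNNGAA or its reverse complement, lay in 8 of the 58 windows (13.8%), against 0.49% of all 35116 windows in the table. Each such match also holds both of the shorter pairs, GAANNTTC and TTCNNGAA. The 8 genes were CHORDC1, DNAJA1, DNAJB6, HSP90AA1, HSP90AB1, HSPA6, HSPA8 and HSPD1. The stretches of the 7 measured genes follow, with the matched bases in capitals and each read 5′ to 3′ on the strand of its gene.
CHORDC1: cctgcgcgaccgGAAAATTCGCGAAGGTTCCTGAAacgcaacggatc
DNAJA1: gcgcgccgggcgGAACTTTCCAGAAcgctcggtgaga
DNAJB6: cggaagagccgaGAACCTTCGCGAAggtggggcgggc
HSP90AA1: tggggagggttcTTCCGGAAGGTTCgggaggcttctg
HSP90AB1: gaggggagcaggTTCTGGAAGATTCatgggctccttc
HSP90AB1, nearer the start: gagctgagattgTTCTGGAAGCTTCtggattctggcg
HSPA6: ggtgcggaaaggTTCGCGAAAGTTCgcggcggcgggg
HSPD1: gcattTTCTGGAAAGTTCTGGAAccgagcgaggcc

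Counted from the transcription start, with the first transcribed base as 1, the capitals of CHORDC1 spanned -60 to -38 (stretch chr11:90223075-90223121, minus strand). They held 3 overlapping elements. Those of DNAJA1 spanned 4 to 16 (chr9:33025264-33025300, plus strand), just inside the first exon. Those of DNAJB6 spanned -131 to -119 (chr7:157336861-157336897, plus strand). In HSP90AA1 they lay at -88 to -76 (chr14:102087108-102087144, minus strand). HSP90AB1 carried 1 element at -165 to -153 (chr6:44247766-44247802) and another at -112 to -100 (chr6:44247819-44247855), both on the plus strand. In HSPA6 the element lay at -74 to -62 (chr1:161524454-161524490, plus strand). In HSPD1 2 overlapping elements spanned -245 to -228 (chr2:197500056-197500090, minus strand). Each position is counted from the start of the window that held the element. HSP90AA1, HSP90AB1 and HSPD1 also had windows at other starts, and those held no element of 3 units. A match describes letters and does not show binding by HSF1.

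None of the 41 measured chaperones passed the test between EDHB and untreated cells. The test was limma, a linear model fitted over all genes, at a Benjamini-Hochberg adjusted p under 0.05. The lowest adjusted p among the members, 0.116, belonged to HSPA12A. Across all genes 2 of 19751 passed (0.0101%). An unadjusted p under 0.05 by limma was found for 9 of the 41 members and for 3317 of all 19751 genes (16.8%). The 4 of 41 that were higher were HSPA12A, HSPA13, HSPB8 and DNAJB4 (background 8.81%). The 5 of 41 that were lower were BAG1, HSPA6, HSF1, DNAJA3 and FKBP4 (background 7.98%). Counts this small are not read as a result about the chaperones. With a prior variance that follows intensity, limma called 1 member, HSPA13, and 1.9% of all genes. With dim probe sets left out, it called HSPA13 and HSPA12A and 3.44% of the 12400 genes then tested.

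**Figure D1:**
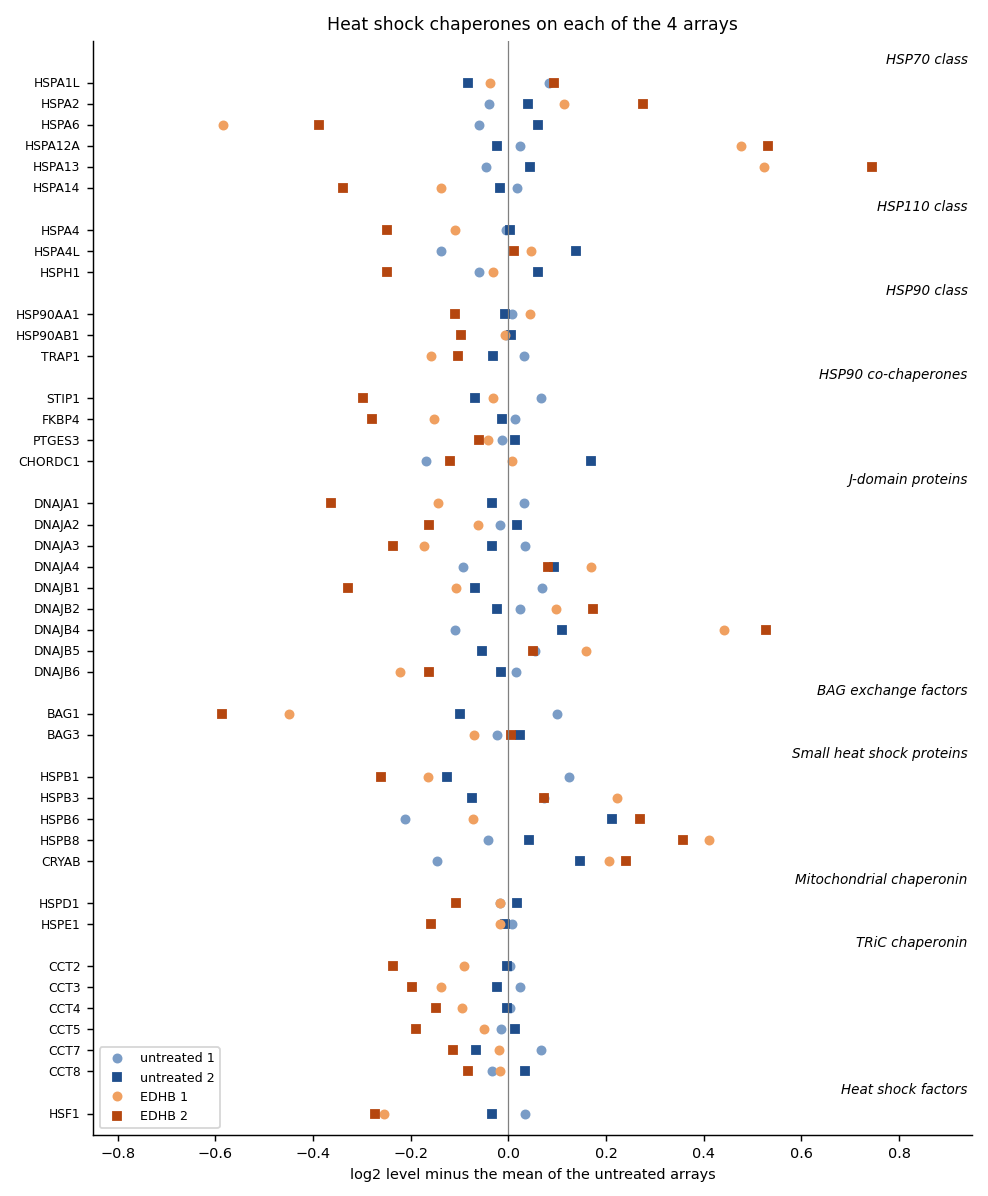
Each line is 1 of the 41 chaperones, and the points are its log2 level on the 4 arrays minus the mean of the untreated arrays (horizontal axis, log2 units). Most points of the EDHB arrays sit left of 0 by less than 0.3, with HSPA13, HSPA12A, DNAJB4 and HSPB8 to the right and BAG1 and HSPA6 farthest to the left.

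The small differences ran mostly downward. On the log2 scale 28 members were below and 13 above their untreated mean, with a median difference of -0.07, beside -0.0014 over all genes. Both EDHB arrays lay below both untreated arrays for 21 members, or 51.22%, against a background of 22.5% of all genes. Both lay above for 7 members, or 17.07%, against 23.2%. The arrays of the groups overlapped for the other 13. Here and over all genes a margin of any size counted as separate. HSPD1 (13.2222 against 13.2226) and HSP90AB1 (12.607 against 12.6101) were thus counted as below. With 2 arrays against 2, the smallest p that an exact two-sided permutation test can give is 0.333. Among genes whose mean level lay above the median probe set (log2 4.54), 25.9% had both EDHB arrays below and 28.5% both above, and 21 and 6 of the 38 members in that class did.

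The brightly read chaperones all had values slightly below their untreated mean. Of the 24 members with a mean log2 level of at least 9, a threshold chosen after the values were seen, 24 had a difference below 0, against 51.9% of the 2897 genes this bright. Their differences ran from -0.25 to -0.03 with a median of -0.13, beside -0.0079 for all genes of that class. Both EDHB arrays lay below both untreated arrays for 17 of the 24, against 32.6% of the bright genes, and above for 0 of 24, against 29.1%. Within the replicate 1 arrays 20 of the 24 were below 0, against 52.2% of the bright genes. Within the replicate 2 arrays 24 were, against 50.6%. Of the 17 dimmer members, 13 were above and 4 below 0. The brightest member with a difference above 0 was DNAJB4, whose mean over the 4 arrays was 8.53. The threshold of 9 lies above that level. The 24 of 24 below 0, and the 0 of 24 above, thus follow from its placement and are no test.

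One array carried more of this than the others. On EDHB replicate 2, 29 of the 41 members read lower than on EDHB replicate 1, where 47.7% of all genes did. The median member difference, replicate 2 minus replicate 1, was -0.09 between the EDHB arrays and -0.0072 between the untreated arrays. The median difference of the members was -0.04 without EDHB replicate 2 and -0.11 without EDHB replicate 1. Within pairs of the same number it was -0.04 for replicate 1 and -0.13 for replicate 2. In 24 of the 41 members both pairs were below 0, in 10 both were above 0, and in 7 they had opposite signs. Over all 19751 genes these counts were 6126, 6113 and 6930.

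**Figure D2:**
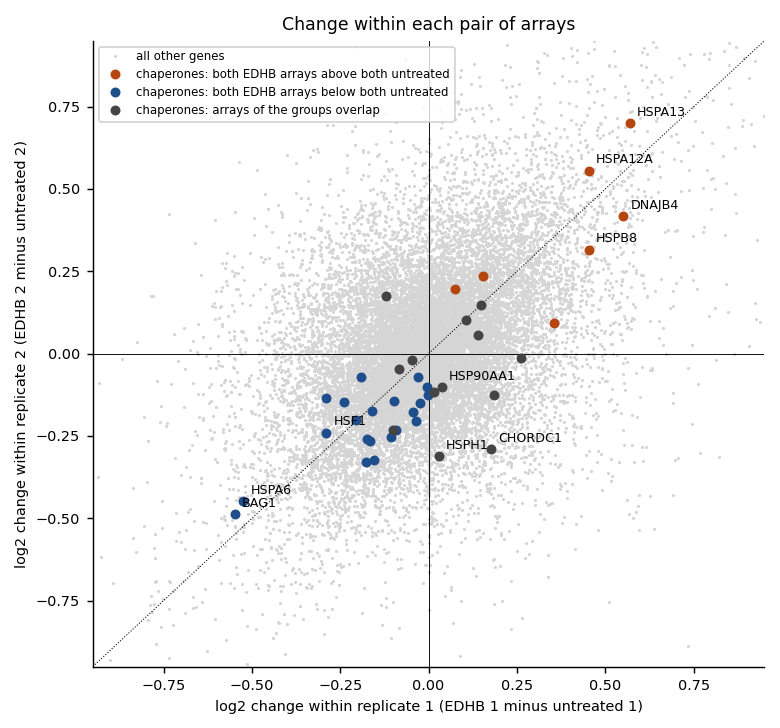
Each point is a gene, with its log2 change between the replicate 1 arrays on the horizontal axis and between the replicate 2 arrays on the vertical axis; grey points are all other genes within the axes and coloured points the 41 chaperones. The cloud of chaperones lies mostly in the lower left quadrant, where 24 members had both pairs below 0, as did 6126 of all 19751 genes.

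The HSP70 class held the largest difference of any member. Of its 6 measured genes 4 were above and 2 below 0, with a median of 0.11. HSPA13, an HSP70-like ATPase that lacks the usual substrate-binding domain, read 7.85 and 7.94 on the untreated arrays and 8.42 and 8.64 on the EDHB arrays (log2 intensity). Both EDHB arrays were higher and the groups did not overlap. The difference was 0.63 ± 0.10 (SE, 2 arrays a group), a 1.55-fold higher intensity with a 95% interval of 0.36 to 0.90 in log2 units. Its adjusted p by limma was 0.124, and 0.0402 with the intensity trend. A further probe set of HSPA13 gave 0.48 and 0.55 within the replicate pairs.

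HSPA12A, a distant relative of HSP70, read 4.95 and 4.90 on the untreated arrays and 5.40 and 5.46 on the EDHB arrays. The groups did not overlap, and all 4 values lay near the dim end of the array. The difference was 0.50 ± 0.08 (SE), or 1.42-fold, with an adjusted p of 0.116 by limma and 0.0356 with dim probe sets left out. Its other probe set, below the median probe set, gave -0.12 and 0.27 within the pairs.

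HSPA6, a HSP70 gene that is nearly silent until cells are stressed, read 4.85 and 4.97 untreated and 4.33 and 4.52 with EDHB. Both EDHB values were lower, and their mean, 4.43, lay below the median probe set, where a level is not shown to exceed background. The difference was -0.49 ± 0.10 (SE; adjusted p by limma 0.151), and the other probe set gave -0.28 and -0.11 within the pairs. The gene is close in sequence to HSPA7, so its probe sets may read both. HSPA14, which acts at the ribosome, was at -0.24, and both its EDHB arrays were below both untreated arrays. Its other 2 probe sets gave -0.05 and -0.04, and without EDHB replicate 2 the difference was -0.14. HSPA2, best known from the testis, was at 0.19 with no overlap, and HSPA1L, another gene known from germ cells, was at 0.03 with overlap. HSPA8, the constitutive HSP70, had 4 probe sets, each annotated to several genes, and got no value. The stress-inducible pair HSPA1A and HSPA1B, outside the 46 genes, likewise got no value.

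**Figure D3:**
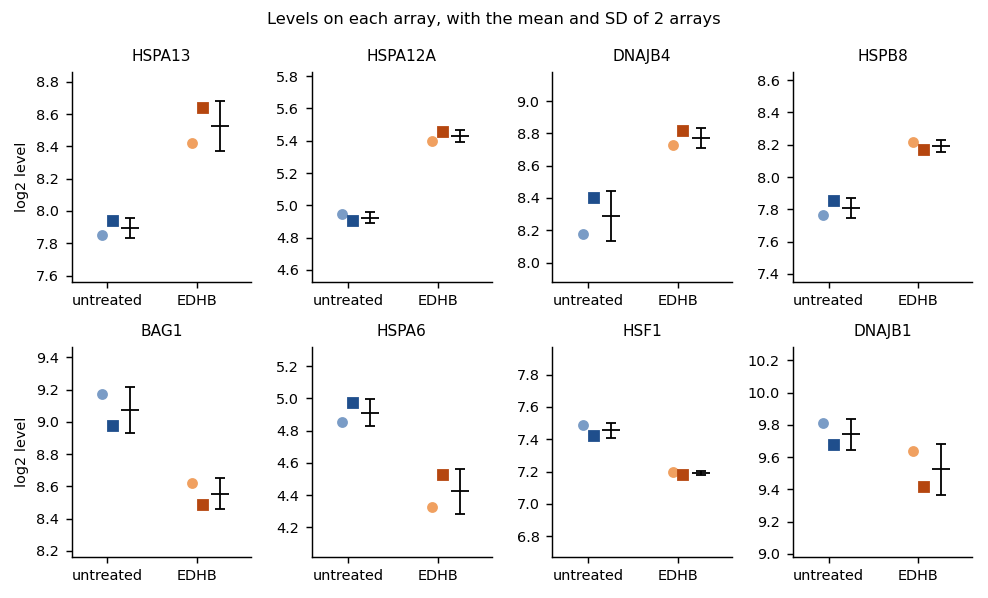
Log2 level (vertical axis) of 8 chaperones on the untreated and EDHB arrays, with the mean and SD of 2 arrays as bars and every panel spanning the same range of 1.3 log2 units. HSPA13, HSPA12A, DNAJB4 and HSPB8 were higher on both EDHB arrays, and BAG1, HSPA6, HSF1 and DNAJB1 lower on both.

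J-domain proteins split in direction, with 4 of 9 above and 5 below 0. DNAJB4, a partner of cytosolic HSP70, read 8.18 and 8.40 untreated and 8.73 and 8.82 with EDHB, without overlap. The difference was 0.48 ± 0.10 (SE), or 1.40-fold (adjusted p by limma 0.152), and its other probe set gave 0.29 and 0.04 within the pairs. DNAJB1, the J-domain protein of the classical heat shock response, went the other way. It read 9.81 and 9.67 untreated and 9.63 and 9.41 with EDHB, so that the groups were separate by a small margin. Its difference was -0.22 ± 0.11 (SE; adjusted p by limma 0.405), and -0.11 without EDHB replicate 2 and -0.33 without EDHB replicate 1.

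The other J-domain genes differed by less than 0.3 in size. DNAJA1, the main cytosolic partner of HSP70 in its subfamily, was at -0.25, DNAJA2 at -0.11 and DNAJB6, which holds aggregation-prone proteins, at -0.19. DNAJA3, the mitochondrial member, was at -0.20, with values of -0.21 and -0.20 within the pairs and -0.28 and -0.24 for its other probe set. In these 4 genes both EDHB arrays were below both untreated arrays. DNAJB2 was at 0.14 without overlap, and DNAJA4 at 0.12 and DNAJB5 at 0.10 with overlap.

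The exchange factors gave the lowest value of any member. BAG1, which releases nucleotide from HSP70 and ties it to the proteasome, read 9.17 and 8.97 untreated and 8.62 and 8.49 with EDHB. Both EDHB arrays were lower by more than the gap between the untreated arrays. The difference was -0.52 ± 0.11 (SE), or a 1.43-fold higher intensity in untreated cells, with an adjusted p of 0.146 by limma. Both further BAG1 probe sets were below 0 too, at -0.57 and -0.40 within the pairs for one and at -0.57 and -0.17 for the other.

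BAG3, the stress-inducible BAG protein that works with HSPB8 in selective autophagy, read 10.30 and 10.35 untreated and 10.26 and 10.33 with EDHB. The groups overlapped, and the difference was -0.03 ± 0.08 (SE), with a 95% interval of -0.23 to 0.17. The HSP110 proteins are exchange factors as well. HSPH1 read 11.13 and 11.26 untreated and 11.16 and 10.95 with EDHB, with overlap, and differed by -0.14 ± 0.11 (SE). HSPA4 was at -0.18 without overlap, and all 4 of its probe sets were below 0 in both pairs, whereas HSPA4L was at 0.03, and its other probe set had the opposite sign.

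The HSP90 genes had small differences, at -0.13 or nearer to 0. HSP90AA1, the stress-responsive cytosolic form, read 13.03 and 13.02 untreated and 13.07 and 12.92 with EDHB. Its groups overlapped, and the 95% interval of the difference ran from -0.26 to 0.19. HSP90AB1, the constitutive form, read 12.61 and 12.62 untreated and 12.61 and 12.52 with EDHB. Its difference was -0.05 ± 0.08 (SE), with an interval of -0.25 to 0.15, and 2 further probe sets had the opposite sign. TRAP1, the mitochondrial HSP90, was at -0.13 without overlap, and its other probe set had the opposite sign.

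Co-chaperones of HSP90 were below 0 in 4 of 4 measured genes, with a median of -0.11. FKBP4, an immunophilin of steroid receptor complexes, was at -0.22, with 3 further probe sets of the same sign and both EDHB arrays below both untreated arrays. PTGES3, the p23 co-chaperone, was at -0.05 without overlap. STIP1, which hands clients from HSP70 to HSP90, was at -0.17 with overlap. CHORDC1, which binds HSP90, was at -0.06, with 0.18 in the replicate 1 pair and -0.29 in the replicate 2 pair.

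Small heat shock proteins were above 0 in 4 of 5 measured genes. HSPB8, the partner of BAG3, read 7.77 and 7.85 untreated and 8.22 and 8.17 with EDHB. The EDHB arrays were higher and did not overlap, with a difference of 0.38 ± 0.08 (SE), or 1.31-fold (adjusted p by limma 0.147). The other HSPB8 probe set gave 0.0033 and 0.03 within the pairs, so the higher reading rests on 1 probe set. HSPB1, or HSP27, read 11.06 and 10.81 untreated and 10.77 and 10.67 with EDHB. These groups were just separate, and the difference was -0.21 ± 0.11 (SE; adjusted p by limma 0.42). Without untreated replicate 1 it was -0.09, and without untreated replicate 2 -0.34. CRYAB, HSPB3 and HSPB6, known from muscle and lens, had mean levels below the median probe set and differences of 0.22, 0.15 and 0.10.

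Both chaperonins lay slightly lower. In the mitochondrion HSPD1, or HSP60, read 13.22 and 13.26 untreated and 13.22 and 13.13 with EDHB. Its co-chaperonin HSPE1, or HSP10, read 11.59 and 11.57 untreated and 11.56 and 11.42 with EDHB. The HSPE1 values with EDHB lay below the untreated ones. In HSPD1 1 EDHB array equalled 1 untreated array at this precision, though the gene was counted above as having both EDHB arrays below. The difference was -0.06 for HSPD1 (95% interval -0.26 to 0.14) and -0.09 for HSPE1 (-0.31 to 0.13). The 6 measured TRiC subunits of the list were below 0, with a median of -0.12. TRiC is the cytosolic ring that folds actin and tubulin. CCT3 was at -0.17, CCT2 at -0.16, CCT4 at -0.12 and CCT5 at -0.12, each without overlap. CCT7 and CCT8 were at -0.07 and -0.05 with overlap, and TCP1 had 3 probe sets, each annotated to several genes. CCT6A, a further TRiC subunit outside the 46 genes, was at -0.07 with overlap, and at 0.02 in the replicate 1 pair.

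HSF1 itself read 7.49 and 7.42 untreated and 7.20 and 7.18 with EDHB. Both EDHB arrays were lower, and the difference was -0.26 ± 0.08 (SE), with an adjusted p of 0.212 by limma. Its other probe set gave -0.14 and 0.09 within the pairs. HSF1 is regulated largely at the protein level, which the arrays do not read. For HSF2, AHSA1 and HSPB11 the annotation used here listed no probe set.

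Several chaperones were read by more than 1 probe set, which gives a check that does not depend on the choice of the brightest. The further probe sets were read on the same 4 arrays and are not further samples. Some, such as the other ones of TRAP1 and CHORDC1, lay below the median probe set. The 41 genes had 86 probe sets, and 30 genes had several. Probe sets differed in sign in 8 of the 30, namely CHORDC1, DNAJA4, HSP90AA1, HSP90AB1, HSPA4L, HSPB6, HSPD1 and TRAP1. In the rest, among them HSPA13, DNAJB4, BAG1, HSPA6 and HSF1, the mean difference of every probe set had 1 sign. The second HSF1 probe set was at only -0.03, with opposite signs within the pairs.

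**Figure D4:**
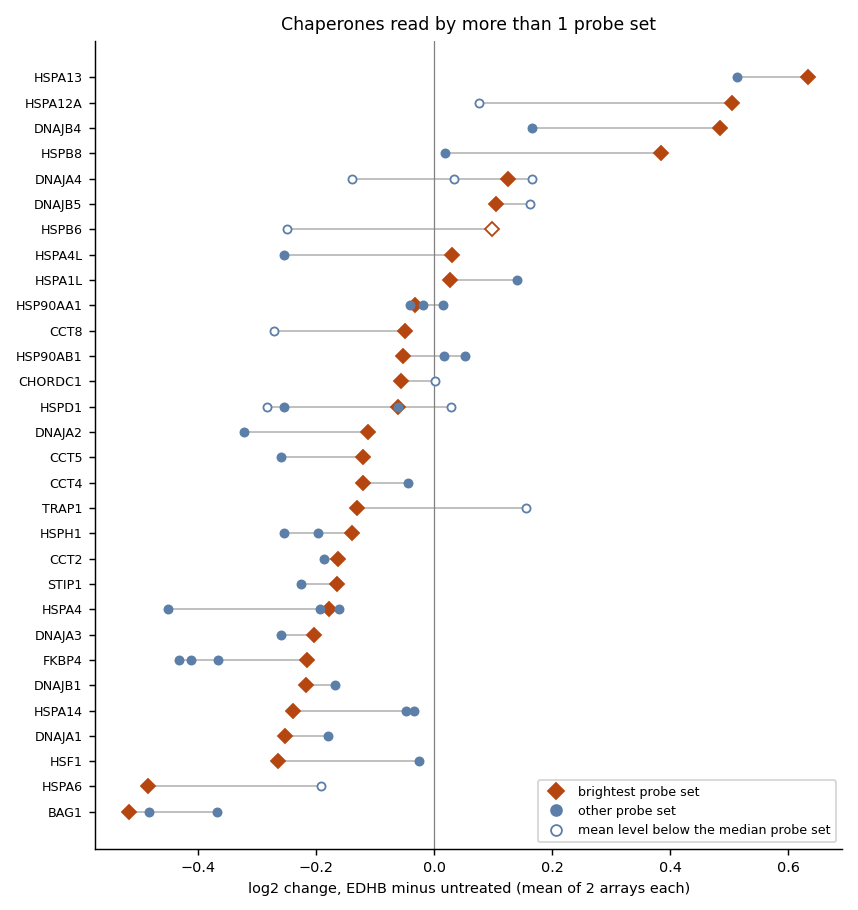
Each line is 1 of the 30 chaperones with several probe sets, and each symbol is a probe set's mean log2 change, EDHB minus untreated (horizontal axis); diamonds are the brightest probe set and open symbols lie below the median probe set of the array. The probe sets of BAG1 all lie left of 0 and those of HSPA13 all lie right of 0, while in 8 genes they fall on both sides.

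The promoter elements can be set beside these values as a description. The 7 measured genes with the element of 3 units were below 0 in 7 of 7 cases, as were 28 of all 41 measured members. Their differences were -0.49 for HSPA6, -0.25 for DNAJA1, -0.19 for DNAJB6, -0.06 for HSPD1, -0.06 for CHORDC1, -0.05 for HSP90AB1 and -0.03 for HSP90AA1. The signs of CHORDC1, HSP90AB1, HSP90AA1 and HSPD1 are not settled, since their probe sets differ in sign. In the replicate 1 pair CHORDC1 was at 0.18 and HSP90AA1 at 0.04. A pair of units, in either arrangement, lay in 37.9% of the chaperone windows and 13.5% of all windows, and its 19 measured genes were above 0 in 7 and below 0 in 12 cases. The core letters of hypoxia response elements, ACGTG or GCGTG on either strand, lay in 67.2% of the chaperone windows and in 48.4% of all windows. The 24 measured genes with such a core were above 0 in 7 and below 0 in 17 cases.

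The windows of HSPA13 and HSPB8 are printed whole because these genes gave the highest values of the HSP70 class and of the small heat shock proteins. Capitals mark the hypoxia cores in HSPA13, at -198 to -194 and, on the other strand, at -16 to -12 (chr21:14383097-14383396, minus strand). They mark the pairs of heat shock units in HSPB8, at -88 to -81 and 5 to 12 (chr12:119178681-119178980, plus strand). The HSPA13 window held no pair of heat shock units. The HSPB8 window also held a hypoxia core, GCGTG at 20 to 24, which is printed in small letters.
HSPA13: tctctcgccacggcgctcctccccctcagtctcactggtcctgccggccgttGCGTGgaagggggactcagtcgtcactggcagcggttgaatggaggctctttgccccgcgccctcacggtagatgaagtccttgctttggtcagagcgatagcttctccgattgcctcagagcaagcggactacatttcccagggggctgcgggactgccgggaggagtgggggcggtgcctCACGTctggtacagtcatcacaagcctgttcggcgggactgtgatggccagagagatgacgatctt
HSPB8: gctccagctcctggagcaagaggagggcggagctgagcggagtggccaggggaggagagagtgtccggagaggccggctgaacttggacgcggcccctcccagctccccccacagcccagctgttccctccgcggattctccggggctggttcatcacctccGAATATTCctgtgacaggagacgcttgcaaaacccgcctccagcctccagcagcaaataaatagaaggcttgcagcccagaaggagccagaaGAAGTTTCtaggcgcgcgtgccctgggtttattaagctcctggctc

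Other folding genes of the cytosol and mitochondrion, 73 measured of 80 listed, also gave 0 calls by limma, with 11 at an unadjusted p under 0.05, 5 higher and 6 lower. That is close to the share of all genes, 16.8%. Of these genes 32 were above and 41 below 0, with a median of -0.0085. Both EDHB arrays were below both untreated arrays for 25 of them (34.25%, against 22.5% of all genes) and above for 14 (19.18%, against 23.2%). One of the 73, CLPP, read 9.08 and 5.65 on the untreated arrays, and its restored replicate 2 values may belong to another probe set. Such a gap of over 2 log2 units between the untreated arrays was found for 12 of the 19751 genes and for 0 of the 41 chaperones. The lowest value was that of DNAJC2, the J-domain partner of HSPA14 at the ribosome, at -0.53, with -0.27 and -0.78 within the pairs. BAG2, another HSP70 exchange factor, was at -0.34, and GRPEL1, the exchange factor of mitochondrial HSP70, at -0.27. The mitochondrial HSP70 itself, HSPA9, was at -0.06. The highest was that of the J-domain gene DNAJC28 at 0.58 (95% interval -0.04 to 1.20), with 0.22 and 0.94 within the pairs. Its untreated arrays read 4.90 and 4.17, the latter below the median probe set (4.54). Other high values were those of DNAJC6, which uncoats clathrin vesicles with HSP70, at 0.39, and the J-domain gene DNAJC12 at 0.39.

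The arrays were alike in overall level, with median intensities of 23.3 to 23.5. Markers of cell types were read as well. Of 9 epithelial markers 6 were measured and 5 lay above the median probe set, while KRT14, a basal keratin, lay below it. KRT6A, KRT17 and TP63 got no value. The summed intensity of the 6 was 12890 to 12970 on the untreated and 13720 to 14220 on the EDHB arrays. Its part in the differences above was not tested. Most of it came from SFN, EPCAM and CDH1 (untreated means 12.80, 11.90 and 10.84), which are not particular to squamous cells. KRT5 and DSG3 were at 6.43 and 5.89, so these markers do not settle a squamous type. Of the fibroblast markers 2 of 6 lay above the median probe set (summed intensity 149.6 to 152.5 untreated and 138.8 to 145.5 with EDHB). Of the endothelial markers 1 of 3 did (54.32 to 62.88 and 59.81 to 63.16), and of the leukocyte markers 0 of 3 (35.92 to 37.8 and 36.6 to 37.86).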

How the data were processed

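Biotin-labelled cRNA from total RNA of KYSE170 cells was read on Affymetrix arrays, per the labels' protocols. The deposited table gave 1 linear intensity per probe set and array, from RMA per the submitters' processing notes; the software version is not given in the sources used here. Background, distribution and probe summaries were thus set by the authors, which removes any overall shift between arrays. Intensities (1.55 to 13393) were used as log2 values, without a pseudocount. The precision is limited by the number of arrays. Nothing says whether replicates were separate cultures, so p-values may measure technical spread only.

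The replicate 2 columns stood in another order than the replicate 1 columns: the EDHB arrays correlated at 0.418 over the 54613 probe sets as deposited and at 0.997 once restored. The order was inferred to be that of a list of probe sets at least 2-fold higher (148), one 2-fold lower (45) and the rest, each in ID order. No label records this layout. Probe sets were matched by a forward-backward alignment on the untreated arrays alone (Student's t density, scale 0.15, 3 degrees of freedom) and kept at a posterior of at least 0.95, which held for 54459 (99.7%) and for all 86 of the chaperones. The median log2 level over 117 probe sets of ribosomal proteins was 12.4 on untreated replicate 1 and 6.61 on untreated replicate 2 as deposited. A posterior over the minimum does not make each match right: 12 of 19751 genes kept a gap of over 2 log2 units between the untreated arrays, while the largest gap among the chaperone probe sets was 0.433. Matching on untreated levels favours small differences between the untreated arrays (median size 0.115, and 0.0998 between the EDHB arrays).

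Each gene took its brightest restored probe set among the 41091 annotated to exactly 1 gene. Probe sets with several genes (1801) or none listed (11721) were left out. EDHB and untreated arrays were compared with limma 3.58.1 in R 4.3.3 (lmFit, eBayes, no trend, no block), with Benjamini-Hochberg adjustment over 19751 genes, 2 residual and 2.99 prior degrees of freedom. Values on every array are given for a fixed set of core genes and for every member with a difference of at least 0.3 and a mean above the median probe set (4.54). The members, the lists and the tests were chosen with earlier results of these data known. Alternatives were an intensity trend, a replicate block, scaling, a filter on dim probe sets, the mean of probe sets, other posterior minimums and leaving out each array. Promoters came from RefSeq (GRCh38.p14) and were searched on both strands.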

Additional observations from a re-analysis of the deposited data

How the results depend on the processing

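The members' median difference was below 0 under every alternative run, from -0.13 (replicate 2 pair alone) to -0.04 (replicate 1 pair alone), and was -0.11 to -0.04 with 1 array left out. The number of members whose groups did not overlap was 28 of 41, and 27 after cyclic loess and with the mean of all probe sets; it was 27 of 38 with probe sets above the median only. Over all genes the shares are 23.2% above and 22.5% below. For genes above the median probe set, the class of the 38, they are 28.5% and 25.9%. The count of members called, 0, became 1 with the intensity trend and 2 with probe sets above the median only, and stayed at 0 elsewhere; other folding genes gave 0 throughout. The count of all genes called, 2, depended on the setting. It was 375 with the intensity trend (211 higher, 164 lower), 426 with probe sets above the median only (265 and 161), 40 with arrays centred on their medians (30 and 10), 7 after cyclic loess (5 and 2), 38 with the mean of all probe sets of a gene (22 and 16), 0 at a posterior minimum of 0.5, 2 at 0.99, and 0 to 0 without any 1 array. The cause was not tested. With the replicate number as a block, 0 genes and 0 members were called; deviations of arrays with the same number correlated at 0.215 over 19751 genes, and with 2 pairs the numbers are not taken to pair the samples.

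Of the 489 member values under alternatives, which leave out the replicate pairs taken alone, 13 changed sign, all in 8 members with small differences. Between the pairs 7 members had opposite signs, and of these HSPH1, DNAJA4 and CCT8 are not among the 8. With the mean of all probe sets HSPA4L was -0.11, HSP90AB1 0.0054, TRAP1 0.012 and HSPB6 -0.076. By the same mean HSPA12A was 0.29, HSPB8 0.20, HSF1 -0.145, HSPA13 0.57, BAG1 -0.46, HSPA6 -0.34 and DNAJB4 0.32. All of these were smaller in size than by the brightest probe set, most clearly HSPA12A, HSPB8 and HSF1. With 1 array left out the value moved by over 1.5 times in 26 of the 41 members, and in the other 15, among them HSPA13, HSPA12A, DNAJB4, HSPB8, BAG1, HSPA6 and HSF1, it did not. HSPA4L then ranged from -0.11 to 0.17, HSPB6 from -0.11 to 0.31, HSPA1L from -0.055 to 0.11, CHORDC1 from -0.23 to 0.11, BAG3 from -0.070 to 0.0058 and HSP90AA1 from -0.11 to 0.044. Centring and loess moved the median gene by 0.0055 and 0.0078 log2 units. Levels below the median probe set are not shown to exceed background.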
